A study of Homo sapiens with 24 samples.

Results

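The genes described here are 10 chemokines that epithelial cells can release or display, CXCL1, CXCL2, CXCL3, CXCL5, CXCL8, CXCL10, CXCL14, CXCL16, CCL20 and CX3CL1. They were found in the table of raw counts by matching its Ensembl gene identifiers to these symbols, and they are 10 of its 60617 genes. All 10 had at least 1 count in some library. Of these, 7 passed a filter on low counts (about 1.16 CPM, the counts scaled to a common library total, in at least 6 libraries) and were tested, and CXCL5, CXCL10 and CX3CL1 were too low to judge.

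Every library came from 686Tu (MDA686TU), an established line of malignant squamous cells from the head and neck, kept in medium with serum. The 4 groups of 6 libraries were untreated cells (NT), cells given EGCG, a green tea catechin, at 40 µM, cells given resveratrol, a stilbene of grapes, at 15 µM, and cells given both agents at these same doses (Combination), each for 24 h. The resveratrol stock was made in DMSO, the EGCG stock in water. Whether the NT cells received DMSO is not stated in the sources used here, so resveratrol and its solvent cannot be told apart. The comparisons ask which chemokine transcripts each agent changed, and whether the pair changed them beyond resveratrol alone.

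Chemokines are small secreted or membrane-bound proteins that guide cells along gradients through G protein-coupled receptors. CXCL1, CXCL2, CXCL3, CXCL5 and CXCL8 (interleukin-8) carry the ELR motif, bind CXCR2 (CXCL8 also CXCR1), and draw neutrophils and promote blood vessel growth. CCL20 draws CCR6-bearing dendritic cells and T cells, CXCL10 is an interferon-induced ligand of CXCR3, CXCL14 is made constitutively by normal squamous epithelium, and CXCL16 and CX3CL1 are held in the membrane until proteases shed them. In squamous carcinoma cells the ELR chemokines and CCL20 are known outputs of NF-κB, the transcription factor family that binds κB sites.

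Most of these genes lie close together. CXCL8 (ENSG00000169429), CXCL1 (ENSG00000163739), CXCL5 (ENSG00000163735), CXCL3 (ENSG00000163734) and CXCL2 (ENSG00000081041) follow each other on chromosome 4 between chr4:73740519-73743716 (CXCL8, plus strand) and chr4:74097040-74099196 (CXCL2, minus strand) of GRCh38, and each of these genes has 4 exons in its canonical transcript. CXCL10 (ENSG00000169245) lies farther along the same chromosome at chr4:76021118-76023497. The other members are CXCL14 (ENSG00000145824) on chromosome 5, CXCL16 (ENSG00000161921) on chromosome 17, CCL20 (ENSG00000115009) on chromosome 2 and CX3CL1 (ENSG00000006210) on chromosome 16.

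The 120 bases before the start of 7 of these genes are shown because they hold the κB matches by which the ELR chemokines and CCL20 resemble each other, with CXCL14, which has none, for contrast. They are RefSeq sequences of GRCh38.p14, 5′ to 3′ on the strand of the gene, at chr4:73869273-73869392 (CXCL1, plus), chr4:74099196-74099315 (CXCL2, minus), chr4:74038690-74038809 (CXCL3, minus), chr4:73998678-73998797 (CXCL5, minus), chr4:73740449-73740568 (CXCL8, plus), chr2:227813722-227813841 (CCL20, plus) and chr5:135578992-135579111 (CXCL14, minus). Capitals mark matches to either of the κB forms described next, overlapping matches being joined.
CXCL1: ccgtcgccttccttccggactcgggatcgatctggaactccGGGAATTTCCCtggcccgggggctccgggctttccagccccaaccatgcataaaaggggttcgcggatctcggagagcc
CXCL2: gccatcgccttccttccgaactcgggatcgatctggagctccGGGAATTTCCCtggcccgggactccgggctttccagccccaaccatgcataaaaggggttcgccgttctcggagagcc
CXCL3: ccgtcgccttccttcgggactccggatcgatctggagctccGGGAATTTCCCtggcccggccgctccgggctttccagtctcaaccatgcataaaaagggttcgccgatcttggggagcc
CXCL5: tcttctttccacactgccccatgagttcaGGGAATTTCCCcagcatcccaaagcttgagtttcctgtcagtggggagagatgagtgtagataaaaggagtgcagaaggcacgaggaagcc
CXCL8: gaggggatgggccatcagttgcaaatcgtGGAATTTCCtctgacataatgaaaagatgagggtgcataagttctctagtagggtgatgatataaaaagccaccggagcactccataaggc
CCL20: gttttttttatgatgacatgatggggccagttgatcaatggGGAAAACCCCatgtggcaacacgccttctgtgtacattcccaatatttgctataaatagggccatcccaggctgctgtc
CXCL14: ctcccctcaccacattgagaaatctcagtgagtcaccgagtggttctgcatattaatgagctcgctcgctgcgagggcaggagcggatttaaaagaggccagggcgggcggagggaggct

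Motifs were searched on both strands from 250 bases before to 50 bases after the start, in 8 members and in 27305 genes in all (the first listed start of each). The κB core GGAATTTCC was present in 6 of the 8 members (CXCL1, CXCL2, CXCL3, CXCL5, CXCL8 and CXCL10) and in 0.472% of all promoters. The longer κB consensus, which overlaps the core, was present in 6 of 8 (CXCL1, CXCL2, CXCL3, CXCL5, CXCL10 and CCL20) and in 5.72% of all. Either form stood in 7 of 8 members, against 5.94% of all promoters, so that only CXCL14 among the 8 had neither. The ELR chemokines and CCL20 were already known outputs of NF-κB. Genes and motifs were also chosen with earlier results known, so this share is no independent evidence. The promoters of CXCL1, CXCL2 and CXCL3 are much alike, and their matches are not separate ones.

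The κB match began at position -79 in CXCL1, CXCL3 and CCL20, at -78 in CXCL2 and at -91 in CXCL5 and CXCL8, counted back from the base before the start. Over the whole window CXCL1 and CXCL3 were identical at 82.5% of aligned bases, CXCL2 and CXCL3 at 73.8%, and CXCL1 and CXCL2 at 71.9%. The remaining motifs searched were rarer among the members. AP-1 sites (TGANTCA) occurred in CXCL8 and CXCL14 and in 7.76% of all promoters, the TATA box (TATAAA) in CXCL8 and CCL20 and in 11.95% of all, C/EBP sites (TTGCNNAA) in CXCL2 and in 10.6% of all, the antioxidant response element core (TGACNNNGC) in CXCL10 and in 13.6% of all, and the ATF4 composite (TGATGNAA) in 0 members and in 3.67% of all. These are matches of letters and not measured binding sites.

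The libraries held 7034872 to 11735574 counts. Combination libraries were the shallowest, with a median total of 7887160 against 9072850 in NT (two-sided exact permutation p = 0.0281, 6 libraries each). The share of mitochondrial transcripts separated replicates 4 to 6 of all groups (0.448% to 0.775% of counts) from replicates 1 to 3 (0.249% to 0.326%), and values in each of these sets are given where they differ in call. The epithelial markers KRT5, KRT14 and KRT6A were abundant in NT, with mean normalized counts of 45970, 32560 and 39950. The sum of 10 leukocyte markers stayed between 3.19 and 12.3 normalized counts in every library, with CD3D, TYROBP and MS4A1 at 0. The sum of 10 fibroblast and endothelial markers was 1134 to 1363 in NT libraries and 1542 to 1770 in Combination libraries, almost wholly through COL1A1. Beside COL1A1, COL1A2 had 496 raw counts in all 24 libraries together, VWF 313 and LUM 169. The remaining markers had from 2 (PECAM1 and DCN) to 40 (CDH5). The part of these markers in the chemokine values was not tested. Fewer cells that make a transcript and less of it per cell cannot be told apart in these bulk libraries.

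Added over the 10 genes, chemokine transcripts were higher with resveratrol than in NT and highest with the combination. The summed normalized count of the 10 genes, in the authors' scaling of raw counts by 1 size factor per library, was 369 ± 37.2 in NT, 421 ± 36.1 in EGCG, 520 ± 51.1 in resveratrol and 721 ± 41.1 in Combination libraries (mean ± SD, n = 6). Every Combination library (668 to 765) lay above every resveratrol library (461 to 607), and every resveratrol library above every NT library (316 to 425). The ELR chemokines CXCL1, CXCL2, CXCL3, CXCL5 and CXCL8 together held 201 ± 25.9 in NT and 482 ± 38.2 with the combination. These sums were not tested.

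In the combination against NT, 6 of the 7 tested chemokines rose, 0 fell and CXCL14 did not pass, by edgeR's quasi-likelihood test with a Benjamini-Hochberg adjusted p under 0.1 and a p under 0.05. Of all 15476 genes tested, 29.9% rose and 29.9% fell in that comparison. The libraries of the groups did not overlap for 5 chemokines (CXCL8, CCL20, CXCL3, CXCL1 and CXCL16), against 15.4% of all tested genes that were higher without overlap. The median log2 fold change of the 7 was 0.97, beside -0.0015 over all genes tested. CCL20 passed the filter only through the groups given resveratrol and had to be higher there. Without it 5 of 6 rose, 4 had no overlap and the median was 0.73. CXCL3 also needed those groups to pass the filter and is kept in these counts. It had 5 resveratrol and 6 Combination libraries over the limit, against 2 of NT and 3 of EGCG. With library size alone as the scaling, all 7 passed, and the share of called genes that were higher moved from 50.04% to 64.6%.

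**Figure D1:**
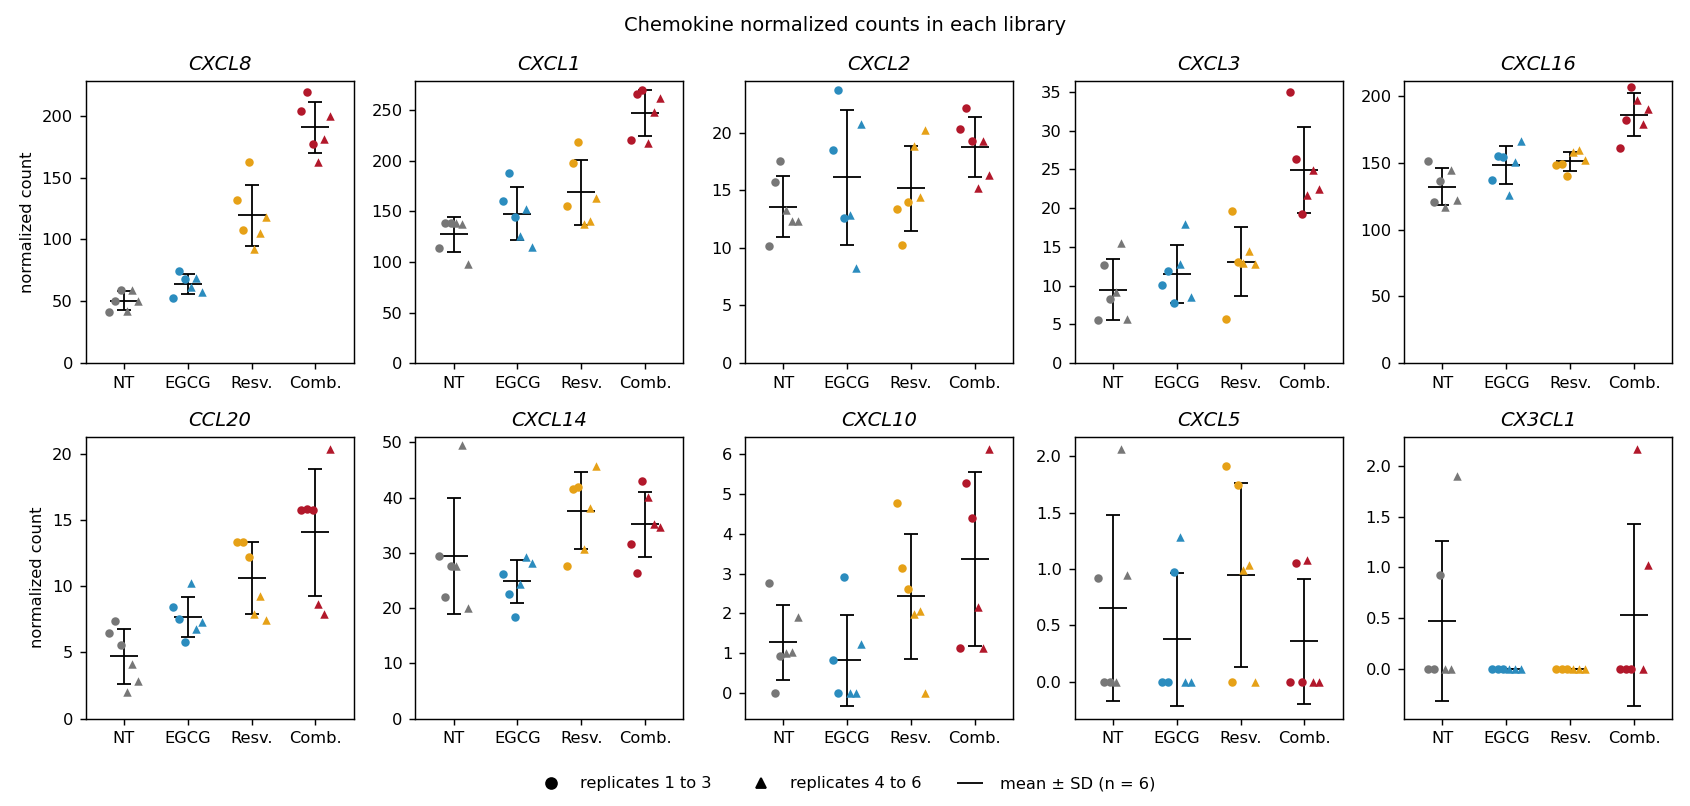
Normalized counts (vertical axis, linear) of the 10 chemokines in each of the 24 libraries, by group (horizontal axis: NT, EGCG, Resv. for resveratrol, Comb. for the combination), with circles for replicates 1 to 3, triangles for replicates 4 to 6 and bars for the mean ± SD of 6 libraries. CXCL8, CXCL1, CXCL3, CXCL16 and CCL20 have every Combination library above every NT library, and the last 3 panels show genes with only a few counts.

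CXCL8, the neutrophil attractant interleukin-8, showed the largest fold change among the 7 in the combination. Its normalized counts in NT ran from 41.5 over a median of 50.4 to 59.1. With the combination they ran from 162 over 191 to 219. The lowest Combination library thus held more than the highest NT library, and the 3.79-fold rise (95% interval 3.19 to 4.50, log2 1.92, SE 0.12) had an edgeR adjusted p of 1.3e-16.

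Resveratrol alone raised CXCL8 as well. Its 6 libraries ran from 92.0 over 113 to 162.4, all above NT, and the highest of them stood just under the lowest Combination library at 162.5. The rise over NT was 2.39-fold (95% interval 1.997 to 2.86, edgeR adjusted p = 7.8e-11), and the further rise from resveratrol to the combination was 1.59-fold (1.38 to 1.82, edgeR adjusted p = 1.5e-05). With EGCG alone the values of 53.0 to 74.3 (median 64.8) overlapped NT, with 4 of 6 libraries above the highest NT library, and the log2 fold change of 0.35 (95% interval 0.06 to 0.63) did not pass (edgeR adjusted p = 0.33).

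CXCL1, the ELR chemokine first known as GRO-alpha, followed the same order of groups with smaller folds. NT libraries ran from 97.8 over 138 to 139 normalized counts and Combination libraries from 218 over 255 to 270. These groups did not overlap, and the 1.95-fold rise (95% interval 1.68 to 2.27, log2 0.97, SE 0.11) had an edgeR adjusted p of 7.3e-10. CXCL1 is also among the genes the study itself listed under TNFα signaling from these samples, so its direction there is no independent evidence.

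With resveratrol CXCL1 ran from 137 over 160 to 218, and 5 of 6 libraries were above the highest NT library. The log2 fold change of 0.43 (SE 0.11) passed in all 24 libraries (edgeR adjusted p = 0.0013) and was 0.56 in replicates 1 to 3, but did not pass in replicates 4 to 6 alone (0.25, edgeR adjusted p = 0.11). The combination exceeded resveratrol by 0.54 (SE 0.10, edgeR adjusted p = 0.00048), with 5 of 6 libraries above the highest resveratrol library. EGCG alone gave 115 to 189 (median 149), overlapping NT.

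CXCL3, a close relative of CXCL1, rose with the combination but did not pass with resveratrol alone. It passed the filter only with the help of the groups given resveratrol. In NT it ran from 5.53 over 8.74 to 15.5 normalized counts, and with resveratrol from 5.73 over 12.98 to 19.6, a range that overlapped NT. With the combination it ran from 19.3 over 23.7 to 34.95, so that all 6 Combination libraries exceeded the highest NT library and 5 of 6 exceeded the highest resveratrol library. The log2 fold changes were 1.397 (SE 0.26, edgeR adjusted p = 6.7e-06) against NT and 0.89 (SE 0.23, edgeR adjusted p = 0.012) against resveratrol, while resveratrol against NT, at 0.51 (95% interval -0.05 to 1.07), did not pass with an edgeR adjusted p of 0.11. The latter passed without NT replicate 2, NT replicate 5 or resveratrol replicate 1 (edgeR adjusted p = 0.082, 0.036 and 0.033), and the rise over resveratrol was lost in replicates 4 to 6 alone (0.23).

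CXCL2, the remaining close relative, had the smallest log2 fold change with the combination among the ELR genes tested. Its normalized counts ran from 10.1 over 12.8 to 17.5 in NT, from 8.23 over 15.7 to 23.7 with EGCG, from 10.2 over 14.2 to 20.2 with resveratrol and from 15.2 over 19.3 to 22.1 with the combination. All groups overlapped. The combination against NT gave a log2 fold change of 0.47 (95% interval 0.03 to 0.91) that passed narrowly (edgeR adjusted p = 0.062). That call was lost in 7 of the 24 fits that each left out 1 library, with edgeR adjusted p from 0.086 to 0.14 and p no longer under 0.05, those without NT replicates 1, 4 or 6 or Combination replicates 1, 2, 3 or 5. It was also lost in replicates 1 to 3 (0.14) and 4 to 6 (0.31) alone.

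CXCL1, CXCL2 and CXCL3 share stretches of sequence, so reads can be exchanged among them in counting. Of the 1444 windows of 50 bases in CXCL2 transcripts, 139 (9.63%) also occur in CXCL3, and 60 of 1313 in CXCL1 (4.57%) occur in CXCL2. The sum of the 3 genes, which such exchange leaves as it is, was 151 ± 21.9 normalized counts in NT, 176 ± 29.0 in EGCG, 197 ± 32.6 in resveratrol and 291 ± 22.3 in Combination libraries (mean ± SD, n = 6). The lowest Combination library (255) lay above the highest resveratrol library (245). CXCL1 held most of this sum (a mean of 127 in NT and 247 in Combination libraries), so the sum says little of CXCL2 and CXCL3. How reads with several matches were counted is not given, and reads left out altogether would change the sum too.

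CCL20, the ligand of CCR6, held few counts in every group. It had 2 to 7 raw counts per library in NT and 7 to 20 with the combination, and it passed the filter only through 3 resveratrol and 4 Combination libraries, so it had to be higher there to be tested at all. Its normalized counts ran from 2.04 over 4.83 to 7.35 in NT, from 7.44 over 10.8 to 13.4 with resveratrol and from 7.93 over 15.8 to 20.4 with the combination. Neither treated group overlapped NT, though the highest NT and the lowest resveratrol library were less than 1 normalized count apart.

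The log2 fold change of CCL20 was 1.17 (SE 0.31, edgeR adjusted p = 0.00097) with resveratrol and 1.56 (SE 0.30, edgeR adjusted p = 1.2e-05) with the combination. Between the latter 2 groups it was 0.39 (95% interval -0.08 to 0.87) and did not pass. In NT the spread over libraries (coefficient of variation 44.01%) was about that of counting alone (45.5%). With EGCG alone its 5.82 to 10.3 normalized counts (median 7.44) overlapped NT, with 3 of 6 libraries above the highest NT library, and the log2 fold change of 0.67 (95% interval -0.01 to 1.34) had an edgeR adjusted p of 0.48.

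CXCL16, the membrane-anchored ligand of CXCR6, rose by less but with the tightest error. NT libraries ran from 117.3 over 130 to 151 normalized counts, resveratrol libraries from 141 over 151 to 160, and Combination libraries from 161 over 187 to 207. Combination libraries lay above every NT and every resveratrol library. The log2 fold changes were 0.50 (SE 0.07, edgeR adjusted p = 4.0e-07) against NT and 0.31 (SE 0.07, edgeR adjusted p = 0.0072) against resveratrol.

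Resveratrol against NT gave 0.20 for CXCL16 (SE 0.08, edgeR adjusted p = 0.028), a call lost in replicates 1 to 3 alone (0.10, adjusted p = 0.49), and the combination against resveratrol was lost in replicates 4 to 6 alone (edgeR adjusted p = 0.20). CXCL16 overlaps MED11 and ZMYND15 on the opposite strand by 76 and 96 of its 2793 exonic bases. MED11, a subunit of Mediator, had mean normalized counts of 153 in NT and 142 with the combination, and ZMYND15 had 1.48 and 3.601. The strand setting of the counting is not given in the sources used here.

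CXCL14, the constitutive chemokine of squamous epithelium, did not follow that order of groups. It ran from 19.9 over 27.6 to 49.5 normalized counts in NT, from 18.4 over 25.3 to 29.2 with EGCG, from 27.7 over 39.9 to 45.7 with resveratrol and from 26.4 over 34.9 to 43.0 with the combination. NT replicate 5 was the highest of all 24 libraries, and every group overlapped NT. With resveratrol it rose by 0.37 on the log2 scale (SE 0.17, edgeR adjusted p = 0.062), but the combination, at 0.28 (95% interval -0.08 to 0.63), did not pass (edgeR adjusted p = 0.18), and the combination and resveratrol differed by -0.09 (95% interval -0.42 to 0.24).

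Single libraries decided these CXCL14 calls. The rise with resveratrol was lost without NT replicates 2, 3, 4 or 6 and without resveratrol replicates 2, 3 or 6, with edgeR adjusted p from 0.097 to 0.17 and p no longer under 0.05. It was also lost in replicates 4 to 6 alone (adjusted p = 0.42). Without NT replicate 5 the combination passed (log2 fold change 0.49, edgeR adjusted p = 0.0093).

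Resveratrol against NT raised 5 of the 7 tested chemokines (CXCL8, CCL20, CXCL1, CXCL16 and CXCL14) and lowered 0, where 28.9% of all tested genes rose and 28.0% fell. The libraries of 2 (CXCL8 and CCL20) did not overlap NT, against 15.1% of all tested genes that were higher without overlap. The combination against resveratrol raised 4 of 7 (CXCL8, CXCL1, CXCL16 and CXCL3) and lowered 0, where only 4.01% of all tested genes rose and 3.86% fell, and 2 (CXCL8 and CXCL16) had no overlap, against 1.83%. The median log2 fold change of the 7 was 0.43 with resveratrol and 0.39 from resveratrol to the combination, against 0.0037 and -0.0011 over all genes tested. Without CCL20, for the reason given above, 4 of 6 rose with resveratrol, 1 (CXCL8) had no overlap and the median was 0.40. Under library size alone, 6 and 4 of the 7 rose in these comparisons, and with resveratrol the share of all called genes that were higher moved from 50.7% to 68.3%. Against EGCG, the combination raised 6 of 7 (5 of 6 without CCL20, and CXCL2 did not pass) and lowered 0, where 28.7% rose and 29.1% fell, and 3 (CXCL8, CXCL1 and CXCL3) had no overlap, against 13.4%, while library size alone moved the share of called genes that were higher from 49.6% to 63.8%. CXCL3, which also needed the groups given resveratrol to pass the filter, is kept in all counts and medians of this paragraph. It is among the 3 without overlap against EGCG, so these counts also lean on the filter. The comparisons against NT share the same NT libraries, and those of the combination share the Combination libraries.

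**Figure D2:**
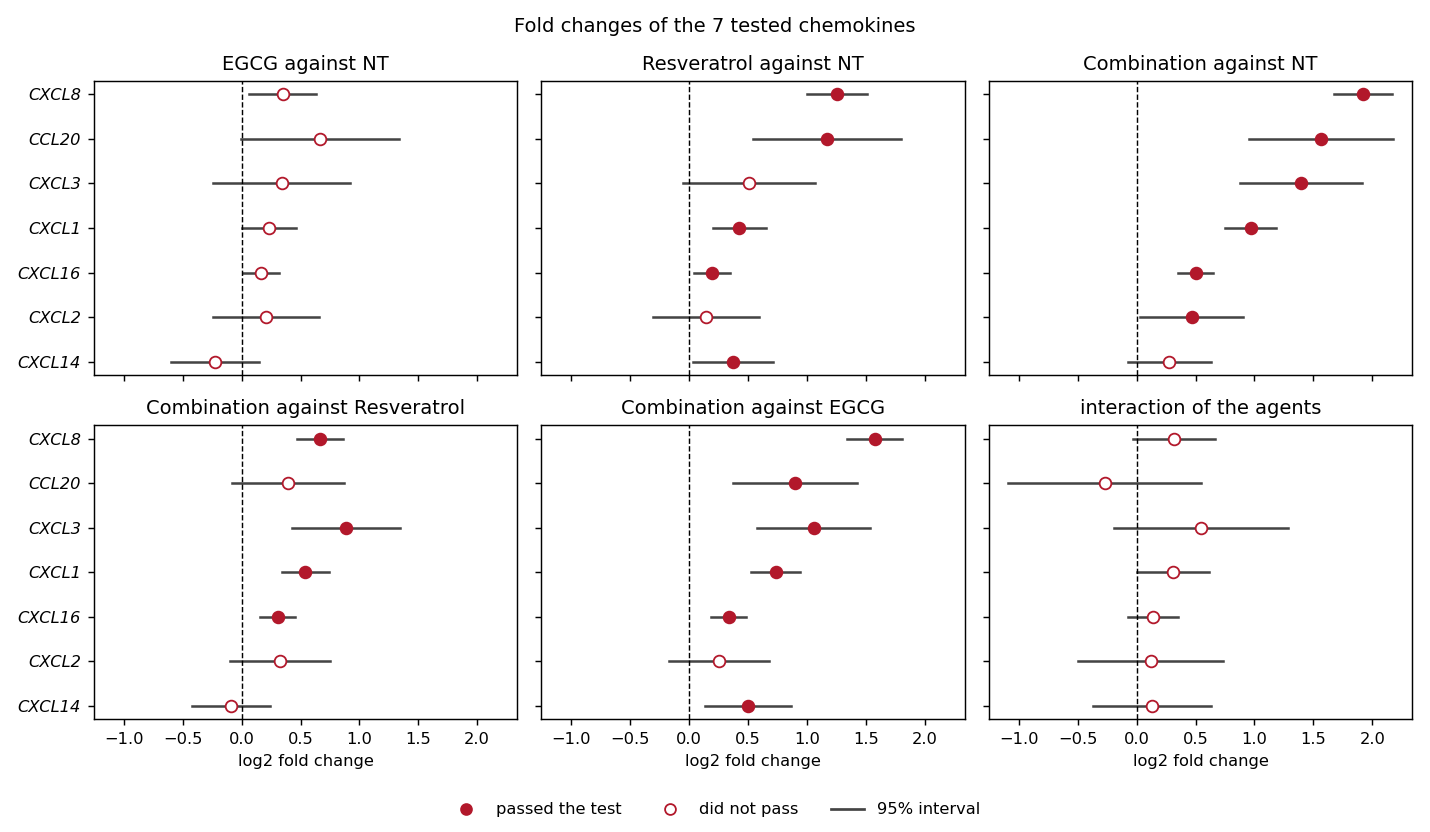
Log2 fold changes (horizontal axis) of the 7 tested chemokines with 95% intervals, 1 panel per comparison, from edgeR over all 24 libraries, with filled points for those that passed the test. The interaction panel shows the combination's departure from the summed log2 changes of the agents. CXCL8 lies farthest right against NT with resveratrol (1.26) and with the combination (1.92), and no point of the EGCG panel is filled.

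EGCG alone changed none of the 7 tested chemokines by edgeR, with 4 (CXCL8, CXCL16, CCL20 and CXCL1) at an unadjusted p under 0.05. DESeq2 also called 0, gave 4 of the 7 an adjusted p, and had 2 at an unadjusted p under 0.05. In that comparison 0.905% of all tested genes rose, 0.859% fell and 0.788% were higher without overlap, and 0 chemokines were free of overlap. The log2 fold changes were positive for 6 of 7, from 0.17 for CXCL16 to 0.67 for CCL20, and -0.23 for CXCL14 (95% interval -0.60 to 0.15). The exact permutation test of the log2 levels gave lower p values for CXCL8 (p = 0.015) and CCL20 (p = 0.017) with EGCG. Both were 0.039 after Benjamini-Hochberg adjustment over 50 such tests, and for both genes 6 of 6 EGCG libraries were above the NT mean. For the other tested chemokines the adjusted p of that permutation test was 0.15 to 0.53. Before adjustment the edgeR p was close to this for CXCL8 (0.018) and higher for CCL20 (0.045). The edgeR p was adjusted over 15476 genes, so the adjusted values of the tests are not alike. Calls here rest on edgeR, by which neither gene passed with EGCG.

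Whether the agents acted on the chemokines beyond the sum of their separate log2 changes was asked with the interaction term. It passed for 0 of 7 chemokines by edgeR and for 0 of the 3 to which DESeq2 gave an adjusted p, and each tool had 1 at an unadjusted p under 0.05. Of all tested genes 0.207% were higher than additive and 0.0582% lower, so that 78.0% of called genes were higher (66.7% under library size alone). The largest departure was that of CXCL3 at 0.55 (95% interval -0.19 to 1.29), followed by CXCL8 at 0.32 (-0.03 to 0.67) and CXCL1 at 0.31 (0.00 to 0.61, unadjusted p = 0.049, edgeR adjusted p = 0.64). These intervals reach 1.59-fold for CXCL8 and 1.53-fold for CXCL1 above additivity, so additivity was not shown either. The interaction of CXCL1 differed between the sets of replicates. It was 0.065 in replicates 1 to 3 alone (edgeR adjusted p = 0.97) and 0.61 in replicates 4 to 6 alone (edgeR adjusted p = 0.24).

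CXCL5, CXCL10 and CX3CL1 were too low to judge. CXCL5 had 4, 2, 6 and 2 raw counts in all 6 libraries of NT, EGCG, resveratrol and the combination, although its promoter holds the same κB sequence as CXCL1. CX3CL1 (fractalkine) had 3 counts in NT, 3 with the combination and 0 with EGCG and with resveratrol, where the limit taken for a count of 0, which is 3 counts over the 6 libraries of the group, is 0.0555 and 0.0559 CPM, and the upper end of the 95% Poisson interval is 0.0683 and 0.0688 CPM. Intervals and limits of this kind cover counting error only.

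CXCL10, the interferon-induced member, had 8, 5, 16 and 20 raw counts in NT, EGCG, resveratrol and the combination. Its group rates were 0.146 CPM in NT (95% Poisson interval 0.0630 to 0.288) and 0.411 with the combination (0.251 to 0.635). These intervals overlap, and the exact permutation p of the log2 levels was 0.058 (0.12 after Benjamini-Hochberg adjustment over 50 such tests of the 10 genes). In a fit without the filter, CXCL10 passed in the combination against EGCG (log2 1.92, edgeR adjusted p = 0.012) and against NT (log2 1.33, edgeR adjusted p = 0.076). DESeq2 gave adjusted p values of 0.041 and 0.13, so that it did not call the latter.

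Per length of transcript, CXCL1 was the most abundant chemokine in every group. In NT the FPKM values (the authors' normalized counts divided by gene length on a common scale) averaged 11.3 ± 1.54 for CXCL1, 5.42 ± 0.57 for CXCL16, 2.57 ± 0.40 for CXCL8 and 1.70 ± 0.61 for CXCL14 (mean ± SD, n = 6). CXCL2 (1.11), CXCL3 (0.489) and CCL20 (0.340) came next. The NT ranges of CXCL1, CXCL16 and CXCL8 were apart, and so were those of CXCL2 and CXCL3, while CXCL8, CXCL14 and CXCL2 overlapped their neighbours in turn, as did CXCL3 and CCL20.

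With the combination CXCL8 stood above CXCL16 in this order. It averaged 9.76 ± 1.06 FPKM, below CXCL1 at 21.9 ± 2.03 and above CXCL16 at 7.64 ± 0.65. The ranges of CXCL8 (8.32 to 11.2) and CXCL16 (6.62 to 8.49) overlapped, so their order there is within the spread. The ratio of CXCL8 to CXCL1 normalized counts was 0.302 to 0.515 in NT and 0.330 to 0.500 with EGCG, but 0.544 to 0.847 with resveratrol and 0.656 to 0.924 with the combination. Thus the ratio in both resveratrol-treated groups lay above all libraries without resveratrol.

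**Figure D3:**
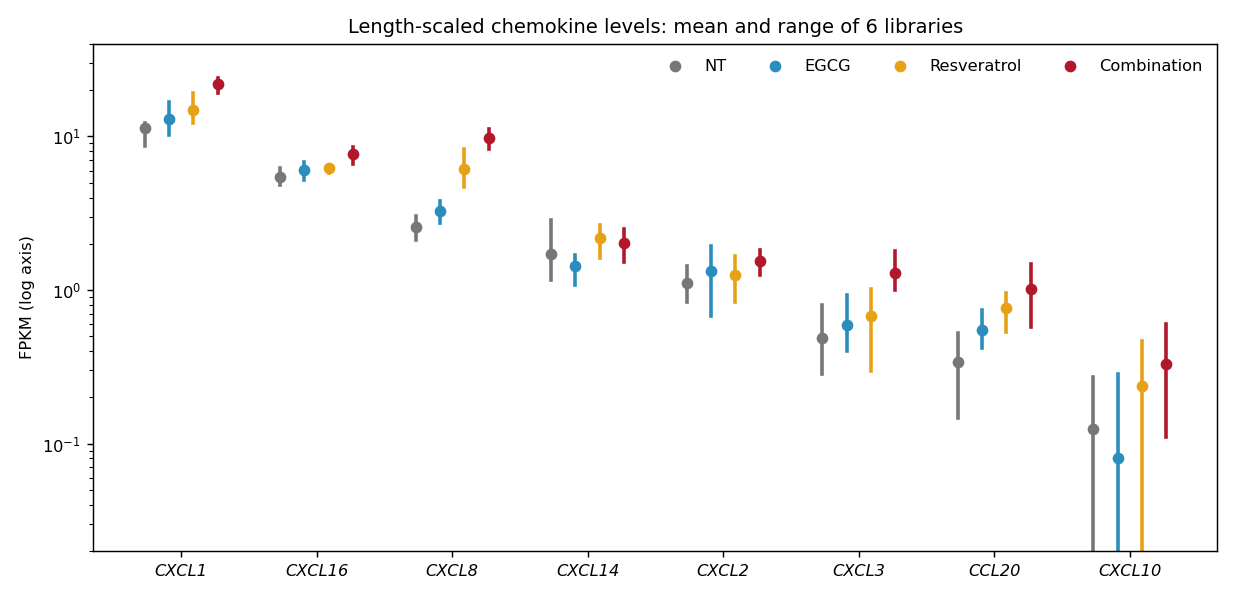
FPKM on a log axis for the 8 most abundant chemokines, as the mean (point) and range (line) of the 6 libraries of each group. CXCL1 leads in every group, and CXCL8 goes from 2.57 in NT to 9.76 with the combination, next to CXCL16 at 7.64. Ranges of CXCL10 that reach 0 run off the bottom of the axis.

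Across the 24 libraries, the genes whose log2 CPM followed a chemokine most closely differed from member to member. For CXCL8 they were TRIB3, a stress-induced pseudokinase (Pearson r = 0.967), MAP1LC3B, an autophagy protein (0.966), and CLDN1, a tight junction protein (0.965). For CXCL1 they included UPP1, uridine phosphorylase (0.930), and BMAL1, a clock transcription factor (0.883), and for CXCL3 they were ANK2 (0.828), CXCL1 (0.782) and HCAR3 (0.777). Those of CXCL16 began with TICAM1, the adaptor of TLR3 (0.864), those of CCL20 with POLR3GL (0.884), those of CXCL14 with MYL6B (0.765) and those of CXCL2 with TECRP1 (0.736). Among the members, CXCL1 and CXCL8 were closest (0.873) and CXCL2 and CXCL14 had 0.00. These values describe libraries that share 4 treatments, and how much of them lies between the groups was not tested.

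Few other chemokines and receptors were measurable. Of 29 other chemokine genes 3 were tested and 12 had 0 counts. All 3 rose with the combination against NT, CCL5 (RANTES) by 1.52 on the log2 scale (4.12 to 11.8 mean normalized counts, edgeR adjusted p = 4.0e-05), the mucosal chemokine CCL28 by 0.90 (11.1 to 21.2, edgeR adjusted p = 0.00039) and the ELR chemokine CXCL6 by 0.55 (14.8 to 21.7, edgeR adjusted p = 0.017). CCL5 passed the filter through 5 Combination libraries and 1 resveratrol library, with 0 of NT and EGCG, so it had to be higher there to be tested, and CCL28 needed those groups too, with 6 libraries of each over the limit against 3 of NT and 1 of EGCG. Of 23 receptors only the scavenging receptor ACKR3 was tested, and it fell by 0.45 (118 to 86.1, edgeR adjusted p = 0.00011). In that comparison 29.9% of all tested genes rose and 29.9% fell. CXCR2, the receptor of the ELR chemokines, had 55 raw counts in all 24 libraries together, CXCR1 had 2, and CCR6 and CX3CR1 had 0.

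Of the NF-κB subunits, NFKB2 and RELB of the non-canonical branch rose most with the combination. Of 9 subunits and kinases 4 rose and 1 fell with the combination against NT, where 29.9% of all tested genes rose and 29.9% fell. The median log2 fold change of the 9 was 0.10 against -0.0015 over all tested genes. NFKB2 rose from 367 to 686 mean normalized counts (log2 0.91, edgeR adjusted p = 1.7e-17) and RELB, its partner, from 134 to 255 (log2 0.93). RELA, a canonical subunit, rose by 0.11 (edgeR adjusted p = 0.0092). The gene that fell was MAP3K14 (NIK), the kinase that starts that same non-canonical branch, by 0.21 (edgeR adjusted p = 0.00052), and it fell by 0.26 with resveratrol alone.

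Of 12 inhibitors and feedback genes of NF-κB, 10 rose, 1 fell and 1 did not pass with the combination, with a median of 0.39. The shares over all tested genes were 29.9% higher and 29.9% lower. TRAF1, a signaling adaptor, rose by 2.26 (14.1 to 68.4 mean normalized counts), BIRC3, an inhibitor of apoptosis, by 1.58 (106 to 318), and NFKBIA, the inhibitor IκBα, by 0.41. EGCG alone already raised 4 of the 12, beside 0.905% of all tested genes. Among them were BIRC3 (0.46, edgeR adjusted p = 0.0049) and TRAF1 (0.83, edgeR adjusted p = 0.013). TNFAIP3, the ubiquitin editor A20, was level with NT under resveratrol (log2 0.00) and rose by 0.53 with the combination, and its interaction of 0.33 passed (edgeR adjusted p = 0.029).

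Of 18 tested epithelial genes known to be induced by NF-κB, 12 rose and 5 fell with the combination, and 8 rose and 5 fell with resveratrol. The shares over all tested genes were 29.9% and 29.9% with the combination, and 28.9% and 28.0% with resveratrol. Complement C3 rose by 1.36 (91.2 to 233 mean normalized counts) and the acute phase protein SAA1 by 1.72 (23.6 to 77.0). The cytokines IL1B and IL1A went the other way, by -1.14 (405 to 184) and -0.79 (2413 to 1396). IL1B fell by 1.49 with resveratrol alone, did not pass with EGCG alone (-0.09), and had an interaction of 0.45 that passed (edgeR adjusted p = 0.019). NFKB2, RELB, BIRC3, IL1A, IL1B, DUSP1, RIGI and IFIT2 are, like CXCL1, among genes the study listed under TNFα signaling from these samples. CXCL8, SAA1 and IL1B are among those it listed for their fold change in them, so the direction of these genes is not independent evidence.

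Upstream of these, 6 of 16 tested cytokine receptors and adaptors rose and 3 fell with the combination, with a median of 0.04. Over all tested genes 29.9% rose and 29.9% fell. The receptors IL17RC (log2 1.08, edgeR adjusted p = 1.2e-14), TLR3 (0.92) and IL1R1 (0.85) rose, as did the adaptor MYD88 (0.43), and the kinase IRAK1 fell by 0.26.

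Interferon-induced genes, to which CXCL10 belongs by its known control, rose nearly throughout. With resveratrol 19 of 19 tested rose and with the combination 18 of 19, with medians of 0.78 and 0.85, and with EGCG 0 passed. Over all tested genes 28.9% rose with resveratrol and 29.9% with the combination. With EGCG only 0.905% rose and 0.859% fell. IFIT2 rose by 1.22 with the combination (139 to 324 mean normalized counts, edgeR adjusted p = 2.9e-17), STAT2 by 0.83 and OAS3 by 0.85. From resveratrol to the combination 4 of 19 rose, with a median of 0.06, where 4.01% of all tested genes rose.

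Proteins that shorten or prolong the life of chemokine transcripts moved in both directions, with 4 of 9 higher and 4 lower with the combination. Over all tested genes 29.9% rose and 29.9% fell in that comparison. HNRNPD (AUF1) fell by 0.57, KHSRP by 0.18 and ELAVL1 (HuR) by 0.21, while DUSP1, a phosphatase that restrains p38, rose by 0.97 (106 to 207 mean normalized counts, edgeR adjusted p = 6.0e-14). Of 5 genes of the shedding of membrane chemokines such as CXCL16, 4 rose, led by the protease ADAM17 (0.41, edgeR adjusted p = 4.5e-10), and ADAM10 fell by 0.09. The 4 include TIMP3, an inhibitor of these proteases (0.20, edgeR adjusted p = 0.00048). Of 10 squamous markers 3 rose and 4 fell, with KRT5 at -0.37 and CDH1 at 0.43 and a median of 0.03, where 29.9% of all tested genes rose and 29.9% fell.

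**Figure D4:**
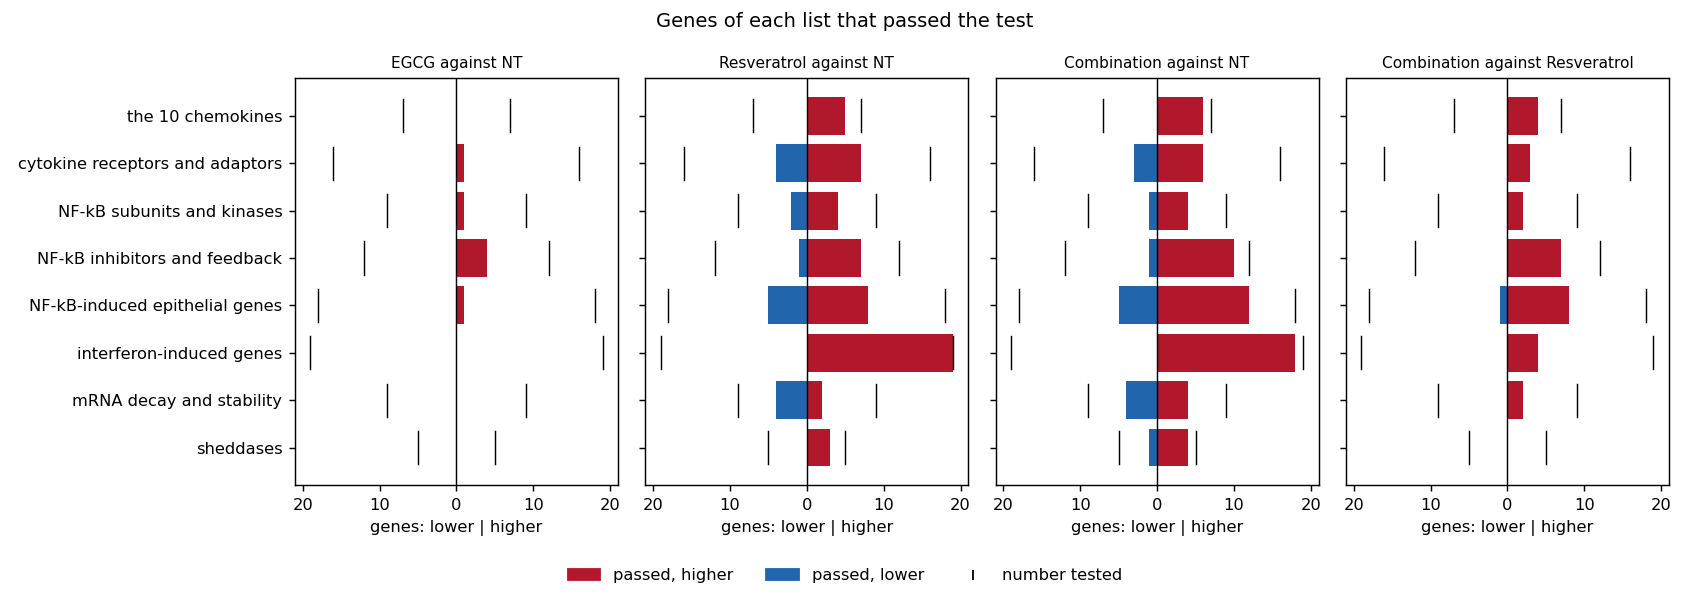
Number of genes of each list that passed the test, higher to the right and lower to the left of 0, with ticks at the number tested, for 4 comparisons. The 10 chemokines have 7 tested members, of which 5, 6 and 4 were higher in the last 3 panels. The interferon-induced genes have 19 tested, of which 19 were higher with resveratrol and 4 from resveratrol to the combination. Over all tested genes 28.9%, 29.9% and 4.01% were higher in the last 3 panels.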

How the data were processed

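Total RNA of 686Tu cells was extracted with RNeasy and made into stranded mRNA libraries with TruSeq. Per the labels the submitters' notes name bcl2fastq 2.17.1.14, Trimmomatic 0.36, FastQC 0.11.5, HISAT2 2.0.4, SAMtools 1.3.1, DESeq2 1.20.0 and GRCh38. The counting program, annotation release, strand setting and treatment of reads with several matches are not given in the sources used here. The authors deposited raw counts per gene (whole numbers, replicates not pooled), normalized counts, a signal equal to the raw counts over 1 size factor per library, and FPKM, which for each gene is a constant multiple of the normalized count.

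Raw counts of all 24 libraries were fitted together with edgeR 4.0.16 in R 4.3.3 (TMM, filterByExpr, quasi-likelihood test) on 15476 genes, and a call needed p under 0.05 and an adjusted p under 0.1. Totals of 7034872 to 11735574 counts set the precision, and the biological coefficient of variation was 5.32%. Standard errors came from the fitted model with its moderated dispersion. On simulated data of the combination against NT with 200 changed genes, edgeR called 185 of them with 15 false calls among 15409 genes. DESeq2 1.42.0 called 178 with 11 false. The changed genes were drawn only from those above a limit on total counts, which CCL20 does not reach. All genes had the same dispersion and no difference between sets of replicates, so the share recovered need not hold for low genes. Exact permutation tests were two-sided, and 6 libraries against 6 cannot give less than 0.00216. The labels do not say whether replicates were separate cultures, so p-values measure the spread between these libraries. The 10 genes, gene lists and motifs were chosen with earlier results of these data known. From each list the text names up to 5 genes with the smallest p in the combination against NT and any called in the interaction, and for each tested chemokine the 3 genes with the highest correlation of log2 CPM (prior count 2), shown in full for 2 of them. The result of 1 such gene is not reported here. SOD2 of the NF-κB-induced list found no row. Alternatives were DESeq2, other scalings, filters and limits, only the groups compared, a replicate block, the sets of replicates 1 to 3 and 4 to 6, and each library left out. Promoter identities came from Biopython 1.88 alignments.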

Additional observations from a re-analysis of the deposited data

Results flagged for a closer look

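Of 38 sets of 6 libraries examined for a library that stands apart, 1 was found. For CXCL14 in NT, replicate 5 held 49.5 normalized counts and the nearest library 29.5, a gap of 0.677 of the whole range which is over Dixon's 95% limit for 6 libraries. Chance alone gives such a gap in about 1 of 20 sets. Without that library the rise of CXCL14 with the combination passed (log2 fold change 0.49, edgeR adjusted p = 0.0093).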

How the results depend on the processing

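Calls of CXCL8, CXCL1, CXCL3, CXCL16 and CCL20 in the combination against NT held in every alternative that tested them. Not every filter kept CCL20 and CXCL3. The number of chemokines called moved from 0 to 4 for EGCG and from 0 to 1 for the interaction with the unadjusted p alone, and in replicates 4 to 6 alone to 2 both for resveratrol against NT and for the combination against resveratrol. Leaving out 1 library gave 4 to 6 for resveratrol and 5 to 7 for the combination against NT, and otherwise no change. For CXCL2 the sign turned with resveratrol against NT in replicates 1 to 3 (-0.21), with the combination against resveratrol in replicates 4 to 6 (-0.077) and in the interaction in replicates 4 to 6 (-0.12), where leave-one-out values ran from -0.057 to 0.26. The interaction turned for CXCL14 in leave-one-out fits (-0.071 to 0.22) and for CCL20 in replicates 1 to 3 (0.089). The causes were not tested.

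CXCL3 in resveratrol against NT and CXCL14 in the combination against NT passed under library size alone (adjusted p = 0.062 and 0.076). DESeq2 did not call CXCL2 in the combination (0.15) or CXCL14 with resveratrol (0.12), and gave CXCL3 no adjusted p against resveratrol. The call of CXCL14 in the combination against EGCG was lost in replicates 4 to 6 (adjusted p = 0.19). With the replicate block the counts of called chemokines stayed at 0, 5, 6, 4, 6 and 0, while genes called in the interaction went from 41 to 85. Same-numbered libraries did not reach the limit set for pairing: 2 of 36 correlations of their deviations were over 0.1 (-0.011 to 0.131), although 31 of 36 were above 0. In 15 of 36 the best correlation was with the same number, where 6 would come from unrelated numbers, a hint from the data and not from the design. At this depth CXCL5, CXCL10 and CX3CL1 could not be judged.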
